A study of Mus musculus with 6 samples.

Results

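A small set of islet barcodes carried a high share of insulin mRNA together with a high share of glucagon or pancreatic polypeptide mRNA. These mixed-hormone barcodes were chosen by their own hormone counts: more than 1000 detected genes, 5000 or more unique molecular identifiers (UMIs, each a captured mRNA molecule), at most 10% of UMIs on mitochondrially encoded genes, *Ins1* plus *Ins2* at 10% of UMIs or more, *Sst* below 1%, and *Gcg* or *Ppy* at 2% or more. The rule kept 447 of 43445 deposited barcodes, which is 3.02% of the barcodes past the depth and mitochondrial limits and 4.19% of the endocrine barcodes (any of insulin, *Gcg*, *Ppy* or *Sst* at 10% of UMIs or more, or a mixed-hormone barcode). *Gcg* alone passed 2% in 251 of them, *Ppy* alone in 149, and both in 47. The hormone shares therefore define the set and are given as a description without a test.

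Each adult islet endocrine cell usually makes mainly 1 hormone: β cells make insulin, which lowers blood glucose, α cells make glucagon, which raises it, and PP cells make pancreatic polypeptide. Transcription factors hold these identities apart. MafA, Pdx1, and Nkx6.1 drive insulin expression and repress other programs in β cells, whereas Irx1, Irx2, and Brn4 (*Pou3f4*) mark mouse α cells. How many cells a barcode with 2 hormones held was not tested, and UMIs, detected genes, and lineage factors are given for it as measurements.

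Islets were isolated from WT and β cell–specific 14-3-3ζ–KO (β14-3-3ζ–KO) mice aged 12 to 14 weeks, on a C57/BL6 background, and dispersed to single cells for droplet RNA-Seq in 3 libraries per genotype. KO mice combined the *Ins1*-CreThor knockin, which expresses Cre recombinase from the insulin 1 locus, with *Ywhaz* alleles whose exon 4 is flanked by loxP sites. The WT mice were littermates with the same Cre and without the floxed alleles, so all 6 libraries shared the Cre allele. No label tied a library to a single animal or gave sex, so p-values measure the spread between these libraries only.

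**Figure D1:**
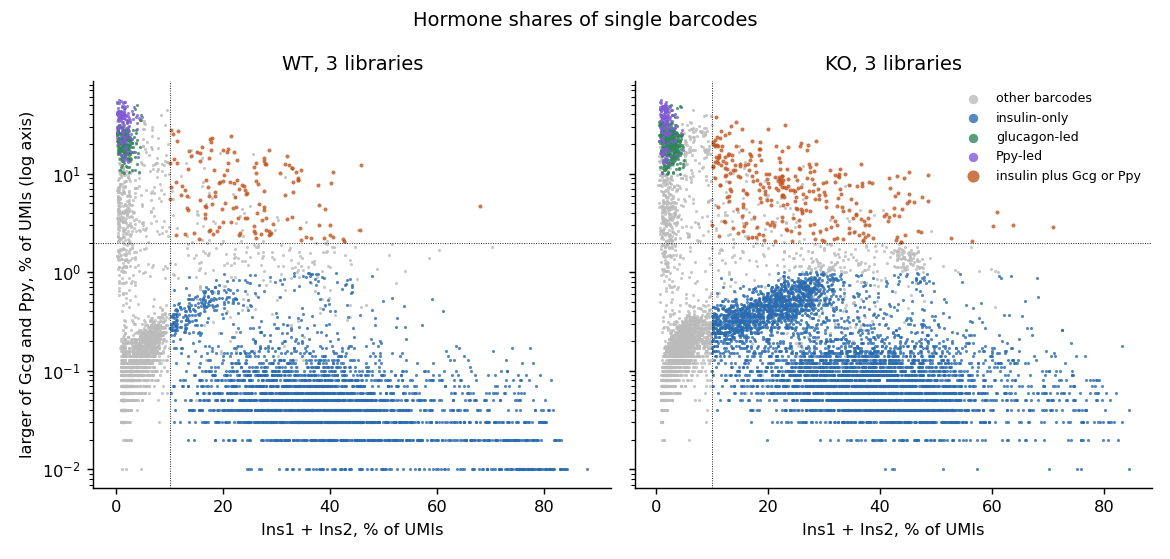
Each point is a barcode past the depth and mitochondrial limits, with insulin share on the linear x axis and the larger of the *Gcg* and *Ppy* shares on the logarithmic y axis, in percent of its UMIs. The 447 mixed-hormone barcodes fill the upper right of both panels, above 2% and right of 10% (dotted lines), and are thinly spread compared with the insulin-only points below them.

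Across the 447 barcodes the median *Ins1* plus *Ins2* share was 23.2% of UMIs (quartiles 16.8% and 32.0%, highest 70.8%). *Gcg* ranged up to 37.5% with a median of 3.08%, and *Ppy* up to 31.3% with a median of 0.861%. The *Sst* share had a median of 0.0158%. In GRCm38 these genes lie apart, *Ins2* (ENSMUSG00000000215) on chromosome 7 at 142678656 to 142743381, *Gcg* (ENSMUSG00000000394) on chromosome 2 at 62474530 to 62483650, and *Ppy* (ENSMUSG00000017316) on chromosome 11 at 102099930 to 102101319, all on the minus strand. For comparison, insulin-only barcodes (insulin at 10% or more, *Gcg* and *Ppy* each below 1%, 8045 barcodes) had a median insulin share of 35.5%, glucagon-led barcodes (*Gcg* at 10% or more and above *Ppy*, insulin below 5%, 617 barcodes) a median *Gcg* share of 21.1%, and Ppy-led barcodes (264, defined likewise) a median *Ppy* share of 35.1%. At the limit, the 5 barcodes just inside had a *Gcg* or *Ppy* share of 2.01% to 2.07% and the 5 just outside 1.96% to 1.99%. Insulin-rich barcodes with 1.5% to 2% numbered 74 and had a median of 6909 UMIs, whereas the 50 with 2% to 2.5% had a median of 24981 UMIs. KO library 2 held 38 of the 74 and 13 of the 50, and without it the medians were 21796 UMIs in 36 barcodes and 29941 in 37.

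Mixed-hormone barcodes were found in all 6 libraries, but unevenly. WT libraries 1 to 3 held 15, 77, and 53, and KO libraries 1 to 3 held 75, 176, and 51. KO library 2 stood apart. Its insulin-only barcodes had a median of 9813 UMIs against 25872 to 42019 in the other 5 libraries, and a median *Gcg* share of 0.271% against 0.0285% to 0.0693%. Of its 2538 insulin-only barcodes, 614 carried 5 or more UMIs of a list of B cell genes, of 800 such barcodes in all libraries. The results below in which most barcodes came from this library, and the *Ywhaz* comparisons between classes, are therefore also given without it. Counts of barcodes with nonendocrine markers are an exception. Barcodes marked by endothelial genes (10 or more UMIs of the list and no hormone at its limit, 1053 barcodes) still had a median insulin share of 2.51% and *Gcg* and *Ppy* shares of 0.107% and 0.0282%. Endothelial cells should lack these hormones. Only 4 of the 447 barcode sequences also occurred in another library (474 of all barcodes).

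Mixed-hormone barcodes held more UMIs than insulin-only barcodes in every library. Their median was 52565, 40855, and 43283 UMIs in WT and 36377, 20555, and 45333 in KO libraries 1 to 3, which was 1.21 to 1.58 times the insulin-only median in 5 libraries and 2.09 times in KO library 2. Detected genes followed, at 1.19 to 1.26 times the insulin-only median in 5 libraries and 1.60 times in KO library 2. The distributions overlapped widely: between 21.6% and 37.3% of the mixed-hormone barcodes of a library lay at or below the insulin-only median.

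The subsets differed in depth. Barcodes with insulin and *Gcg* had medians of 46714, 36055, and 34478 UMIs in WT and 34723, 14377, and 44224 in KO libraries 1 to 3. Set against the sum of the insulin-only and glucagon-led medians of the same library, these came to 64.1% to 89.6%. The glucagon-led class made up 36.2% to 39.6% of that sum in 5 libraries and 56.6% in KO library 2. Barcodes with insulin and *Ppy* were deeper, with medians of 29836 to 51016 UMIs, and reached 65.1% to 103% of the sum of the insulin-only and Ppy-led medians. Once each barcode was thinned at random to 5000 UMIs, the gap in detected genes was small, with library medians of 1638 to 1809 genes in mixed-hormone, 1587 to 1731 in insulin-only, and 1827 to 1971 in glucagon-led barcodes.

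**Figure D2:**
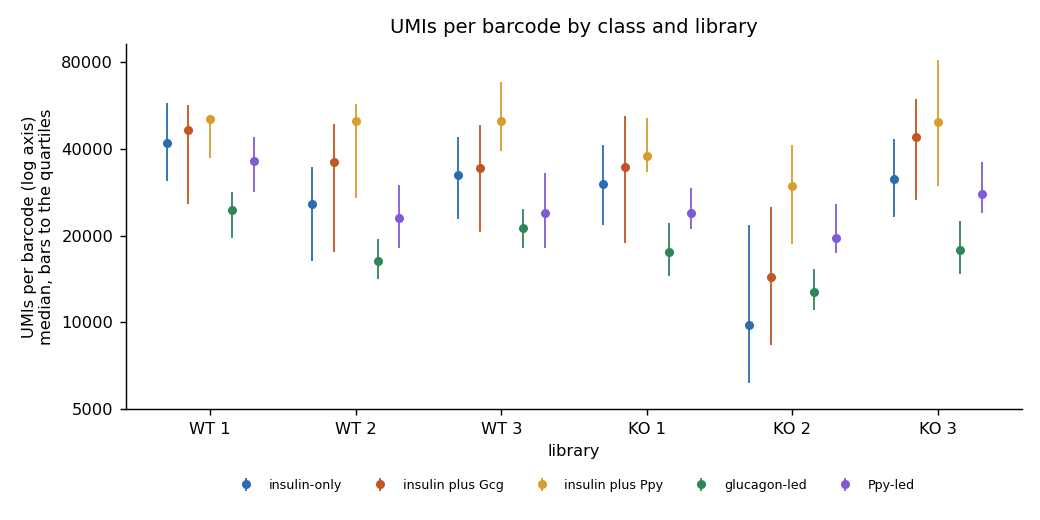
Points are the median UMIs per barcode on a logarithmic axis and bars run to the quartiles, for 5 classes in each library on the x axis. In all 6 libraries the insulin plus *Gcg* median lies above the insulin-only and glucagon-led medians, the insulin plus *Ppy* median lies higher still, and each class has its lowest median in KO library 2.

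Barcodes with insulin and *Gcg* carried α cell factors (*Irx1*, *Irx2*, and *Pou3f4*) at mean levels between those of the single-hormone classes. UMIs were summed over the barcodes of a class in a library and scaled to counts per 1000000 UMIs (CPM), which with 3′ counting does not depend on transcript length.

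*Irx2* (ENSMUSG00000001504, chromosome 13, 72628820 to 72634198, plus strand), an Iroquois homeobox gene of α cells, was at 32.1, 30.03, and 30.5 CPM in WT and 38.5, 38.0, and 19.4 CPM in KO libraries 1 to 3, with insulin-only libraries at 1.5 to 3.09 CPM and glucagon-led libraries at 95.3 to 135 CPM. The 3 ranges of *Irx2* did not overlap. Its relative *Irx1* was at 3.57, 19.1, and 18.7 CPM in WT and 31.6, 26.0, and 16.02 CPM in KO libraries 1 to 3, and averaged 19.2 ± 9.54 CPM (SD, n = 6 libraries) against 0.417 ± 0.297 in insulin-only and 72.0 ± 11.8 in glucagon-led barcodes. *Pou3f4* was sparse, with 18 UMIs in all and 0 in WT library 1, which allows up to 10.7 CPM (3 counts, counting error only).

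The β cell factors were carried by the same pools. *Mafa*, the activator of insulin transcription in mature β cells, was at 150, 618, and 537 CPM in WT and 482, 423, and 428 CPM in KO libraries 1 to 3 of the insulin plus *Gcg* barcodes. Insulin-only barcodes had 334, 680, and 630 CPM in WT and 513, 650, and 544 CPM in KO, and glucagon-led barcodes 10.2 to 63.1 CPM. The insulin plus *Gcg* level was below that of insulin-only barcodes in each of the 6 libraries and above that of glucagon-led barcodes, although ranges over libraries overlapped with insulin-only. *Nkx6-1* averaged 147 ± 34.6 CPM against 172 ± 19.5 in insulin-only and 24.6 ± 3.72 in glucagon-led barcodes, and *Pdx1*, the pancreatic master factor retained in β cells, 85.8 ± 14.5 CPM against 96.5 ± 15.1 and 9.80 ± 3.11. Both lay between the classes in 5 of 6 libraries, with WT library 1, which rests on 7 barcodes, above insulin-only.

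**Figure D3:**
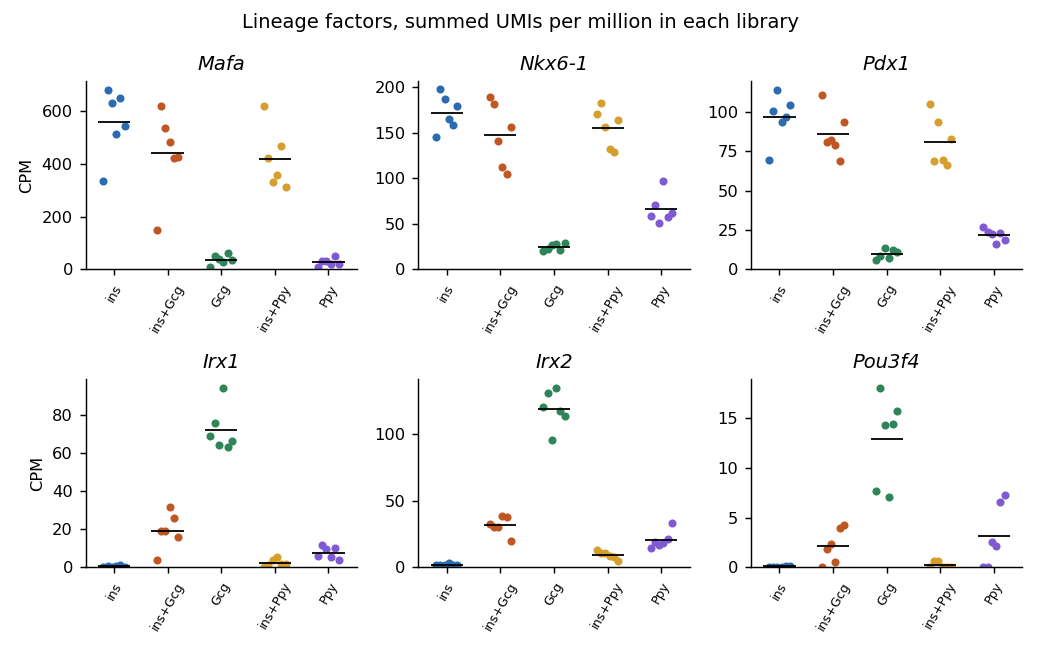
Each panel is a lineage factor, each point a library (WT 1 to 3, then KO 1 to 3, left to right within a class), the y axis CPM of summed UMIs, and lines are means over 6 libraries. In insulin plus *Gcg* barcodes (ins+Gcg) the means of *Mafa*, *Nkx6-1*, *Pdx1*, *Irx1*, and *Irx2* all lie between insulin-only and glucagon-led, nearer to insulin-only. In insulin plus *Ppy* barcodes *Irx2* lies above insulin-only and below Ppy-led.

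In single barcodes the picture was less complete. These factors are low, and the part of low levels in this was not tested. Thinned to 5000 UMIs, at least 1 UMI of a β cell factor and at least 1 of an α cell factor were found together in 51 of 251 insulin plus *Gcg* barcodes (20.3%, 0% to 28.1% by library). The share was 1.28% of insulin-only, 20.1% of glucagon-led, and 0.19% of endothelial-marked barcodes. Without thinning the shares were 62.5%, 5.31%, 61.3%, and 1.04%, at median depths of 24963, 25796, 16780, and 11813 UMIs. The glucagon-led barcodes had a median of 2.14% insulin, and the insulin plus *Gcg* libraries overlapped the 2.13% to 26.7% of the glucagon-led libraries, so the joint share did not set these classes apart. An α cell factor was found in 23.5% of insulin plus *Gcg*, 1.44% of insulin-only, and 59.8% of glucagon-led barcodes at 5000 UMIs, and a β cell factor in 84.5%, 88.3%, and 35.2%.

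Co-detection was seen at every depth. Among insulin plus *Gcg* barcodes of 5000 to 10000 UMIs, 21.6% of 51 had both kinds of factor at 5000 UMIs, against 19.6% of 51 at 10000 to 20000, 22.7% of 75 at 20000 to 40000, and 17.6% of 74 above 40000. Of the shallowest 51, 34 came from KO library 2, and without that library the shares were 29.4% of 17, 22.2% of 18, 24.4% of 41, and 18.5% of 65. The summed α cell factor level followed the *Gcg* share, at 34.3 CPM in 104 barcodes with 2% to 5% *Gcg*, 69.8 CPM in 92 with 5% to 10%, and 111 CPM in 55 with 10% or more, while the β cell factor level was 742, 654, and 577 CPM. The last group held 38 barcodes from KO library 2 and had a median of 12206 UMIs. Without that library the α cell factors were at 35.2, 69.3, and 107 CPM and the β cell factors at 730, 683, and 805.4 CPM in 71, 53, and 17 barcodes. The group with 10% or more *Gcg* thus had the lowest β cell factor level only with KO library 2 included, and without it rests on 17 barcodes.

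Barcodes with insulin and *Ppy* held less of the α cell factors, which are also low in Ppy-led barcodes. *Irx2* averaged 9.32 ± 2.94 CPM against 20.4 ± 6.66 in Ppy-led barcodes, and its 4.75 to 13.1 CPM lay above all insulin-only libraries. *Irx1* averaged 2.35 ± 1.97 CPM against 7.63 ± 3.02 in Ppy-led barcodes. *Mafa* was 418 ± 114 CPM and *Nkx6-1* 156 ± 21.3 CPM, against 27.8 ± 14.3 and 66.3 ± 16.5 in Ppy-led barcodes. At 5000 UMIs, 2.68% of these 149 barcodes had a β cell and an α cell factor together, against 4.92% of Ppy-led barcodes. The 47 barcodes with *Gcg* and *Ppy* both above 2% had 42.9 ± 17.5 CPM of *Irx2* and 17.9 ± 6.91 CPM of *Irx1*, and 22 of them came from KO library 2.

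Genes that were not used to pick the barcodes took similar places. The position of a gene was computed within each library as its distance from the insulin-only level (0%) toward the glucagon-led level (100%). In insulin plus *Gcg* barcodes the summed α cell factors had a median position of 25.3% over 6 libraries (17.2% to 33.9%) and the summed β cell factors 19.6% (11.0% to 38.1%). *Irx2* was at 26.2% (15.9% to 31.3%) and *Irx1* at 27.0% (4.93% to 40.3%). *Iapp*, the amylin cosecreted with insulin, fell at 22.9% (6.96% to 24.4%), *Glp1r*, the incretin receptor, at 26.4% (16.9% to 39.9%), and *Ttr*, a transport protein abundant in α cells, at 24.8% (15.5% to 48.8%). *Pyy*, peptide YY, was at 36.0% (18.3% to 48.3%). *Pcsk2*, the convertase that processes proglucagon, had the highest median of the genes plotted, at 50.7% (38.2% to 55.9%). *Gcg* itself, which the rule used, was at 26.2% and *Ins2* at 34.8%.

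**Figure D4:**
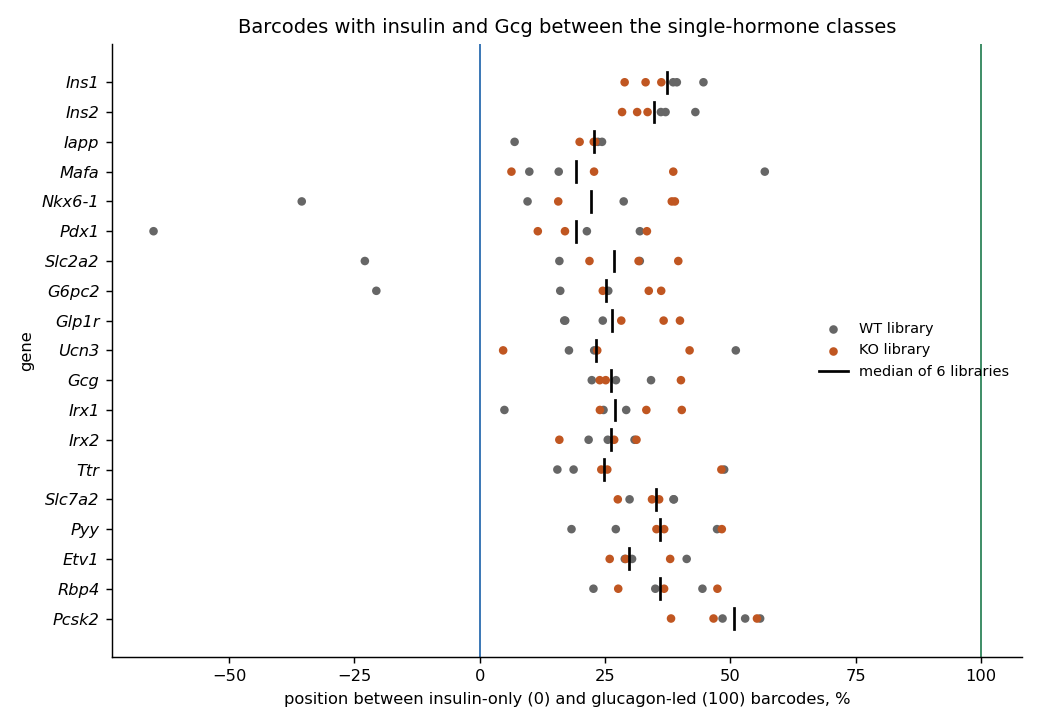
Each point is a library, and the x axis gives the position of a gene in insulin plus *Gcg* barcodes, in percent, between its insulin-only (blue line, 0) and glucagon-led level (green line, 100). Black ticks are medians of 6 libraries, which lie between 19.2% (*Pdx1*) and 50.7% (*Pcsk2*), and the 4 points below 0 belong to WT library 1 with its 7 barcodes.

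Counted over lists of genes with 10 CPM or more in a class, the mean level lay between the single-hormone classes for 3 of 3 β cell factors, 3 of 3 α cell factors, 12 of 12 β cell function genes, 7 of 7 α cell function genes, 10 of 11 granule genes, 5 of 8 pan-endocrine factors, and 2 of 4 mitochondrial genes. Over all 8915 genes with 10 CPM or more 69.2% lay between, and over the 1321 of these with classes 2-fold apart or more 92.7% did, with a median position of 28.9%. In insulin plus *Ppy* barcodes, set between insulin-only and Ppy-led, 3 of 3 β cell factors, 1 of 1 α cell factor, 12 of 12 β cell function genes, 4 of 5 α cell function genes, 7 of 11 granule genes, 5 of 8 pan-endocrine factors, and 2 of 4 mitochondrial genes lay between. The share was 52.7% over all 8465 genes and 87.5% over the 1218 with classes 2-fold apart or more, with a median position of 27.5%.

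Of 2863 genes at 50 CPM or more, 748 differed in the same direction in all 6 libraries from the mean of the insulin-only and glucagon-led levels, 209 higher and 539 lower. That mean is the midpoint of the classes, whereas genes 2-fold apart or more had a median position of 28.9% in insulin plus *Gcg* barcodes. Ppy-led barcodes were not part of the mean. The rule that chose the barcodes used *Ppy* and *Gcg*, so the ranking is a description without a test. The 10 highest began with *Ppy* (log2 ratio 2.93 ± 0.83, SD, n = 6), *Tspan8* (1.57 ± 0.33), *Shisal2b* (1.02 ± 0.37), and *Pyy* (0.93 ± 0.43), followed by *Mlxipl*, *Sez6l*, *Insrr*, *Gstm1*, *B830017H08Rik*, and *Frzb* at 0.67 to 0.78. *Ppy*, *Tspan8*, and *Pyy* were highest in Ppy-led barcodes, at 342681, 434, and 82304 CPM, and *Mlxipl*, a glucose-responsive transcription factor of β cells, was at 116 CPM in mixed-hormone, 118 in insulin-only, and 16.5 in glucagon-led barcodes. Of the 10 lowest, 9 were *Pdk4*, *Gcg*, *Irx1*, *Ttr*, *Wnk3*, *Vwde*, *Higd1a*, *Basp1*, and *Hapln1*, at −1.67 to −1.42, all of them highest in glucagon-led barcodes. *Pdk4*, a kinase that restrains pyruvate dehydrogenase, was at 12.9 CPM in mixed-hormone, 0.519 in insulin-only, and 84.9 in glucagon-led barcodes.

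The 12 genes of progenitor, immature, or dedifferentiated endocrine cells summed to 255 ± 47.8 CPM in mixed-hormone barcodes, against 146 ± 43.2 in insulin-only and 326 ± 14.5 in glucagon-led barcodes. Ppy-led barcodes had 329 ± 33.9 CPM and endothelial-marked barcodes 1934 ± 89.5 CPM, so the list was not restricted to endocrine barcodes. The tetraspanin *Cd81* made up much of this, at 102 ± 20.5 CPM against 40.6 ± 13.1 and 216 ± 15.2, and *Sox4* was at 75.3 ± 21.2 CPM against 51.1 ± 3.63 and 66.7 ± 9.45. *Neurog3*, the factor that starts the endocrine program in the embryo, averaged 3.21 ± 1.40 CPM in mixed-hormone barcodes (48 UMIs), against 1.24 ± 0.381 in insulin-only and 0.911 ± 0.885 in glucagon-led barcodes. *Aldh1a3*, a marker of dedifferentiated β cells, averaged 3.19 ± 3.58 CPM (36 UMIs) against 2.49 ± 2.85 and 0.138 ± 0.214. In the 219 insulin-rich barcodes with 1% to 2% *Gcg* or *Ppy*, *Neurog3* averaged 3.00 ± 2.81 CPM (8 UMIs) and *Aldh1a3* 4.82 ± 6.23 CPM (12 UMIs). The gastric and ghrelin hormones *Gast* and *Ghrl* had 26 and 1 UMIs in mixed-hormone barcodes. The 8 genes of dividing cells summed to 39.4 ± 7.10 CPM in mixed-hormone barcodes, against 51.4 ± 8.02 in insulin-only and 51.5 ± 13.5 in glucagon-led barcodes.

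The shared endocrine machinery was present. The 8 pan-endocrine factors summed to 1098 ± 117 CPM, against 971 ± 135 in insulin-only and 1106 ± 66.3 in glucagon-led barcodes, with *Neurod1* at 235 ± 42.4 CPM and *Isl1* at 166 ± 9.55 CPM. The 11 granule and prohormone processing genes summed to 14749 ± 985 CPM against 13599 ± 1652 and 16953 ± 626. The 8 immediate early genes, which respond to dissociation and stimulation, stood at 702 ± 84.2 CPM, above 295 ± 43.7 in insulin-only and below 1054 ± 219 in glucagon-led barcodes, and the 10 stress genes at 1699 ± 268 CPM against 2059 ± 434 and 1189 ± 46.4. The 4 δ cell genes other than *Sst* summed to 241 ± 70.7 CPM against 35.02 ± 11.6 and 730 ± 71.2, and the 7 PP cell genes other than *Ppy* to 20773 ± 4173 CPM against 738 ± 140 and 21507 ± 4584. Each sum was mostly 1 gene that is also high in glucagon-led barcodes. *Rbp4* was at 728 CPM in glucagon-led and 31.6 CPM in insulin-only barcodes. *Pyy* was at 20412 CPM in mixed-hormone, 543 in insulin-only, and 20780 in glucagon-led barcodes. By subset the PP cell genes summed to 7872 ± 1786 CPM with insulin and *Gcg* and 33485 ± 8902 CPM with insulin and *Ppy*. Ppy-led barcodes had 82847 ± 16243 CPM of these PP cell genes, 251 ± 54.0 CPM of the δ cell genes, and 1983 ± 220 CPM of the immediate early genes.

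Markers of nonendocrine cells were found in a minority of barcodes. Barcodes with 5 or more UMIs of endothelial, stellate cell and pericyte, macrophage, B cell, or T cell genes were counted together. Without them, 119 of 145 WT and 264 of 302 KO mixed-hormone barcodes remained. For insulin-only barcodes, 2641 of 3023 WT and 3625 of 5022 KO remained. At least 5 UMIs of the list were found in 14 of 447 mixed-hormone barcodes for endothelial genes (3.13%, against 2.47% of insulin-only barcodes), 26 for macrophage genes (5.82% against 2.92%), 4 for stellate cell and pericyte genes (0.895% against 0.808%), 15 for B cell genes (3.36% against 9.94%), and 19 for T cell genes (4.25% against 7.26%). Acinar genes reached 5 UMIs in 14 (3.13% against 1.39%). The limit of 5 UMIs was not adjusted for depth. KO library 2 held 614 of the 800 insulin-only barcodes marked by B cell genes and 475 of the 584 marked by T cell genes. It also held 8 of the 15 and 15 of the 19 mixed-hormone barcodes so marked, and shares without it are not given. The summed endothelial list was uneven, at 300 CPM in WT library 1 and 8.99 to 124 CPM in the other libraries. The 5 ductal genes summed to 366 ± 72.1 CPM, between 271 ± 57.8 in insulin-only and 482 ± 154 in glucagon-led barcodes, with Ppy-led barcodes at 645 ± 141. The part of nonendocrine cells in the results was not tested.

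The number of mixed-hormone barcodes was set against the number of single-hormone barcodes of the same library. For every 100 glucagon-led barcodes there were 21.3, 46.7, and 33.7 barcodes with insulin and *Gcg* (with or without *Ppy*) in WT and 55.1, 76.7, and 25.2 in KO libraries 1 to 3. For every 100 Ppy-led barcodes there were 42.1, 80.4, and 61.7 with insulin and *Ppy* in WT and 62.2, 120, and 50.0 in KO. The same count for *Sst* (insulin with *Sst* at 1% or more, per 100 barcodes with *Sst* at 5% or more and insulin below 5%) was 45.4 to 169. KO library 2 was the highest for each hormone. The product ratio, which divides the mixed count times all filtered barcodes by the product of both single-hormone counts, was 0.391 to 1.35 for glucagon, 0.774 to 2.11 for *Ppy*, and 0.834 to 2.97 for *Sst*, with KO library 2 highest and WT library 2 next for each. These 2 libraries also held the most deposited barcodes, 9653 and 10722 against 4400 to 6813, and the part of barcode number in these counts was not tested.

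Genotype was compared over libraries. Mixed-hormone barcodes made up 1.40, 4.77, and 3.99 per 100 endocrine barcodes in WT and 4.32, 5.24, and 3.24 in KO libraries 1 to 3, or 3.39 ± 1.76 against 4.27 ± 1.00 (SD, n = 3 libraries each; exact permutation test, two-sided p = 0.6). The groups overlapped, and with 3 against 3 libraries no p below 0.1 is possible. Median UMIs per barcode were 45568 ± 6180 in WT and 34088 ± 12547 in KO (exact permutation p = 0.3). The summed α cell factors were 35.1 ± 7.31 CPM in WT and 41.7 ± 12.6 CPM in KO (exact permutation p = 0.6), and the summed β cell factors 646 ± 122 and 629 ± 22.1 CPM (exact permutation p = 0.8). Insulin plus *Gcg* barcodes were 46.7%, 41.6%, and 45.3% of the mixed-hormone barcodes in WT and 69.3%, 62.5%, and 50.98% in KO, which did not overlap (exact permutation p = 0.1, Benjamini-Hochberg adjusted p = 0.333 over 10 such comparisons).

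*Ywhaz*, which encodes 14-3-3ζ, is the gene deleted in β cells of the KO mice (chromosome 15, 36770770 to 36796929, minus strand, GRCm38). UMIs are counted near the 3′ end of a transcript and so measure the remaining *Ywhaz* RNA rather than exon 4 itself. In mixed-hormone barcodes *Ywhaz* stood at 117, 151, and 148 CPM in WT and 44.5, 57.8, and 49.0 CPM in KO libraries 1 to 3. The highest KO value was under the lowest WT value. In edgeR's quasi-likelihood test over summed counts, *Ywhaz* fell by 1.41 on the log2 scale (SE 0.16, Benjamini-Hochberg adjusted p = 3.55e-04), and it was the only gene called of 10353 tested (0.00966%). Insulin-only barcodes had 127, 177, and 163 CPM in WT and 22.0, 52.3, and 21.5 CPM in KO, a log2 difference of −2.26 (SE 0.40) that did not pass the same test (edgeR adjusted p = 0.949). Glucagon-led barcodes had 93.7, 147, and 132 CPM in WT and 107, 153, and 124 CPM in KO, a log2 difference of 0.03 (SE 0.14, edgeR adjusted p = 1.00).

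The genotype effect on *Ywhaz* was compared between classes. It was 0.98 (log2, SE 0.36) less negative in mixed-hormone than in insulin-only barcodes (limma unadjusted p = 0.0150). After adjustment over 10471 genes this difference did not pass (limma adjusted p = 0.9999). The genotype effect was more negative in mixed-hormone than in glucagon-led barcodes, by a difference of −1.46 (SE 0.37, limma unadjusted p = 0.00114). That difference did not pass after adjustment either (limma adjusted p = 0.999). No gene passed in either comparison (0% each), with 198 and 402 of 10471 genes at an unadjusted limma p under 0.05. Both counts are below what that limit would pass with no difference. Both differences passed the threshold of 0.05 without KO library 2 (1.28, limma adjusted p = 0.00799, and −1.53, adjusted p = 0.00287), with 10000 or more UMIs per barcode in every class (1.30, adjusted p = 0.0117, and −1.47, adjusted p = 0.00635), and without barcodes carrying 5 or more UMIs of nonendocrine markers (1.43, adjusted p = 4.23e-04, and −1.44, adjusted p = 0.0013). In the last setting the KO insulin-only libraries were at 20.5, 22.7, and 19.3 CPM of *Ywhaz*, the mixed-hormone ones at 46.0, 52.6, and 46.6, and the glucagon-led ones at 107, 138, and 124. The KO mixed-hormone level then sat at 29.6%, 25.8%, and 26.0% of the way from insulin-only to glucagon-led, and with all barcodes at 26.3%, 5.48%, and 26.9%.

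**Figure D5:**
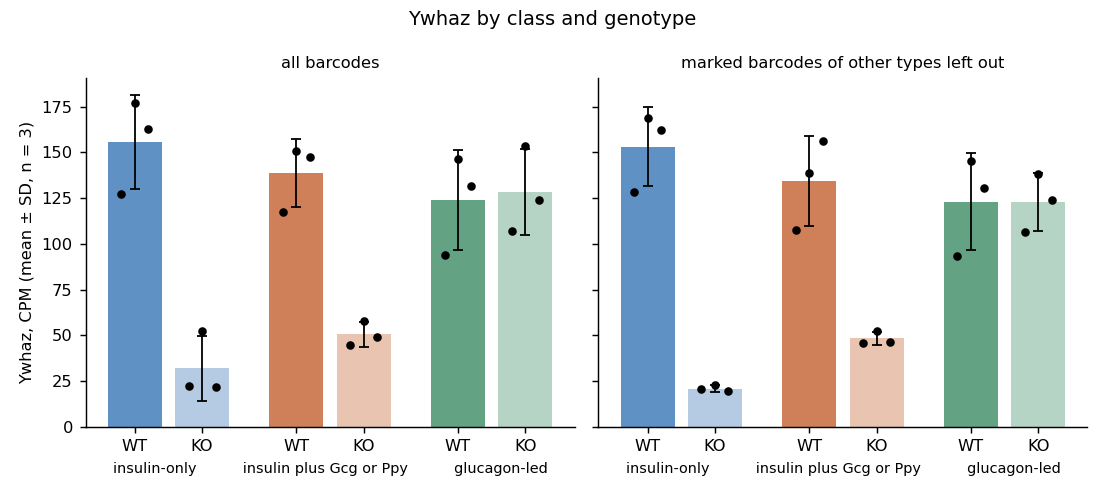
Bars are mean *Ywhaz* CPM ± SD over 3 libraries (points), for WT (dark) and KO (light) in 3 classes on the x axis, with all barcodes on the left and without barcodes carrying nonendocrine markers on the right. The KO mixed-hormone libraries at 44.5 to 57.8 CPM lie between the insulin-only and glucagon-led KO means of 31.9 and 128 CPM on the left, and the 1 high insulin-only KO point (52.3 CPM, KO library 2) falls to 22.7 CPM on the right.

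The KO insulin plus *Ppy* barcodes had 46.1, 42.5, and 29.5 CPM of *Ywhaz* and the KO insulin plus *Gcg* barcodes 44.8, 66.0, and 60.7 CPM. Ppy-led KO barcodes had 79.8 ± 19.7 CPM. Thinned to 5000 UMIs, *Ywhaz* was seen in 40.0%, 55.8%, and 58.5% of WT and 21.3%, 30.7%, and 21.6% of KO mixed-hormone barcodes (exact permutation p = 0.1, the smallest the design allows). Other 14-3-3 genes did not pass the test. *Ywhae* averaged 315 ± 12.2 CPM over 6 libraries (log2 difference −0.01, SE 0.12), *Ywhaq* 235 ± 13.5 CPM (−0.03, SE 0.13), *Ywhab* 105 ± 14.2 CPM (0.20, SE 0.15), *Ywhah* 80.8 ± 10.4 CPM (0.03, SE 0.15), and *Ywhag* 79.0 ± 7.08 CPM (0.10, SE 0.13), whereas *Sfn* was too sparse to be tested.

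Beyond *Ywhaz*, 423 of the 10353 genes tested had an unadjusted edgeR p under 0.05, and the median log2 difference over all genes was 0.000464. That count is below what a limit of 0.05 would pass with no genotype effect. KO and WT libraries did not overlap for 8.75% of genes. With 3 against 3 libraries a gene without a difference separates with a probability of 0.1. The next 4 genes by p were *Rpl9-ps6* (log2 difference 1.09, SE 0.22), *Gm10076* (−0.82, SE 0.17), *Npnt*, which encodes the matrix protein nephronectin (−0.87, SE 0.18), and *Sult1d1*, a sulfotransferase (−0.66, SE 0.14), with edgeR adjusted p of 0.351 to 0.378. Without the low-count filter all 4 passed (edgeR adjusted p of 6.10e-06 to 0.0167), among 110 genes called of 18504. Those with the lowest p there were *Mgp*, *Try4*, *Plvap*, and *Ighm*. *Rpl9-ps6* is a pseudogene and *Gm10076* a predicted gene, and reads of such genes can be shared with near-identical copies, so their counts are uncertain.

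No list of lineage or function genes held a called gene other than *Ywhaz* among the 14-3-3 genes. Of the 3 α cell factors 2 were tested, with *Irx1* at a log2 difference of 0.84 (SE 0.29) and *Irx2* at 0.20 (SE 0.25). The 3 β cell factors were *Mafa* at 0.11 (SE 0.17), *Pdx1* at −0.03 (SE 0.14), and *Nkx6-1* at −0.28 (SE 0.14). The medians were 0.52 and −0.03, beside 0.000464 for all genes. The β cell function genes had a median of −0.02, α cell function genes 0.04, granule genes −0.07, stress genes −0.07, and immediate early genes −0.15. The 4 mitochondrial genes that the study named from its own β cell comparison of these samples, and which are therefore no independent evidence, had a median of 0.32 with 0 called by edgeR and 1 at an unadjusted p under 0.05. Acinar genes had the largest list median, 2.62 over 3 genes with 0 called and 3 at an unadjusted edgeR p under 0.05, and their summed level was 26.1, 6.82, and 27.2 CPM in WT and 27.8, 46.6, and 222 CPM in KO libraries 1 to 3, with KO library 3 the highest.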

How the data were processed

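Single-cell RNA-Seq libraries of islets were made by the authors with the 10x Genomics 3′ v3.1 kit, and the processing notes of the submitters name Cell Ranger 6.0.2, Seurat, and mm10. The authors deposited raw UMI counts per gene and called barcode for 6 libraries, without normalization, and these were used as deposited (74083947 to 98294915 UMIs per library). No doublet caller was run, free RNA was not subtracted, and KO barcodes with remaining *Ywhaz* were kept. The barcodes, classes, and gene lists were chosen with earlier results of these data known, and mixed-hormone barcodes were not tested against single-hormone barcodes because hormone counts chose both. *Ero1b* was matched as *Ero1lb*. Some α cell genes are not reported here, and the summed α cell factors leave them out.

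Counts were summed per class and library. KO and WT sums were compared with the edgeR 4.0.16 quasi-likelihood test (TMM, genes with a UMI in over 15% of barcodes of either genotype, Benjamini-Hochberg adjusted p under 0.05, and absolute log2 fold change above 0.1). Differences between classes in the genotype effect were fitted with limma 3.58.1 (voom, library as a random block). SEs of edgeR were derived from its F statistics. Single values were compared with exact two-sided permutation tests in SciPy 1.17.1. Barcodes were thinned with a fixed seed. The edgeR genotype fit and the limma difference from insulin-only barcodes were tested with simulated mixed-hormone counts of fixed dispersion. The other fits were not tested this way. Named genes were the markers, lineage factors, and 14-3-3 genes, listed genes at 10 CPM or more, the 5 lowest p-values of the genotype test, and the 10 highest and 10 lowest ratios to the single-hormone mean (pseudocount 1). Outside this rule, *Neurog3*, *Aldh1a3*, *Gast*, and *Ghrl* were named regardless of their level, and some genes called in alternative fits were named. Coordinates are from GENCODE vM21 (GRCm38). Alternatives were DESeq2 1.42.0, its size factors, no low-count filter, a replicate block, stricter hormone or UMI limits, removal of shared or marked barcodes, and each library left out.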

Additional observations from a re-analysis of the deposited data

How the results depend on the processing

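*Ywhaz* was called lower in KO mixed-hormone barcodes under all 16 alternatives, and the number of genes called was 1 in 10 of them. It was 110 without the low-count filter, 17 with a replicate block, 2 with insulin at 20% or more (with *Apoe*), 2 at 10000 or more UMIs (with *Egfl7*), and 1 to 5 with a library left out (3 without WT library 1 and 5 without KO library 1). The *Ywhaz* difference from insulin-only barcodes passed at 10000 or more UMIs (1.30) and without marked barcodes (1.43), with 0.76 to 1.28 over libraries left out, of which only the fit without KO library 2 passed. The difference from glucagon-led barcodes passed with insulin at 20% or more (−1.69), at 10000 or more UMIs (−1.47), and without marked barcodes (−1.44), with −1.53 to −1.40 over libraries left out, of which again only the fit without KO library 2 passed. The cause was not tested. KO minus WT in barcodes per 100 endocrine barcodes ran from −0.11 (without WT library 1) to 1.57 over libraries left out and was 0.61 to 1.80 under the stricter limits and removals, and in summed β cell factors it ran from −77.8 to 43.8 CPM over libraries left out (the highest without WT library 2), so neither direction held under every alternative. The mean position of the α cell factors moved from 25.03% to 34.5% with *Gcg* at 5% or more, a limit that itself selects higher *Gcg*. An alternative added after seeing the data, insulin plus *Gcg* barcodes only, called 1 gene, *Ywhaz*.

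Deviations of same-numbered libraries correlated at 0.370, 0.140, and −0.116 over 2306 genes. WT libraries 1 and 2 correlated best with the KO library of the same number, whereas WT library 3 correlated best with KO library 2 (0.324). These values do not settle whether replicate numbers pair the libraries. With the replicate block the *Ywhaz* change in mixed-hormone barcodes was −1.39. Ordered by p, the 17 genes called began with *Ywhaz*, the acinar genes *Prss2* and *Ctrb1*, *Ighm*, *Lyz2*, and *Apoe*. Later in that order were *Gm10076* (edgeR adjusted p = 0.00724), *Rpl9-ps6* (0.0164), and *Npnt* (0.0170), which did not pass without the block. *Gm10076* also passed without WT library 1 (edgeR adjusted p = 0.0184).

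Depth limits the rare factors: at 5000 UMIs an α cell factor was found in 23.5% of insulin plus *Gcg* barcodes, and WT library 1 contributed 15 barcodes.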
